A study of Drosophila melanogaster with 9 samples.

Results

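Blood cells (hemocytes) of Drosophila melanogaster were compared between larvae with a UAS transgene for the imatinib-resistant human fusion kinase BCR-ABL T315I (genotype UAS-BCR-ABLT315I) and larvae of the W1118 control strain. The libraries were chosen by their labels, which gave 3 T315I and 3 control libraries, 6 of the 9 libraries of the series. The other 3 libraries, from larvae with UAS-BCR-ABLP210, entered the shared estimate of spread and 1 comparison at the end. Each library was made from hemocytes bled from 300 third-instar larvae, with experiments at 25 °C, so that each value is a pool of animals. The labels name no driver line that would switch the UAS transgene on, and not the cells in which it would act. The controls carried neither transgene, so strain background and transgene cannot be told apart. RNA of human BCR-ABL was not analysed here.

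BCR-ABL joins the kinase ABL to a part of BCR and drives chronic myeloid leukaemia. T315I is a substitution at the gate of its drug-binding pocket that blocks imatinib. Larval blood holds 3 known cell types, the phagocytic plasmatocytes, the crystal cells that make melanising phenoloxidase, and the lamellocytes, large flat cells that wrap parasites and are rare in healthy larvae. JAK/STAT and Toll signalling are known to raise lamellocyte number in this animal, and integrins and the actin cytoskeleton shape these cells.

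Total counts were 13.86, 14.59 and 15.72 M in the T315I libraries, against 5.40, 8.24 and 9.84 M in the control libraries. At these depths 3 counts correspond to 0.191 to 0.216 CPM in T315I (CPM stands for counts per M counts, with library totals scaled by TMM) and to 0.305 to 0.556 CPM in control, a bound on counting error alone. Ribosomal RNA genes took 0.0288 to 0.0451% of the counts in T315I and 0.245 to 0.672% in control, and depth and this share therefore moved with the groups in every result; their part was not tested. The table lists 17874 genes, of which 9978 were tested and 4416 had no count in any of the 9 libraries. A listing at 0 need not mean absence, because 1949 of 1952 protein-coding genes whose span lies wholly within other genes were at 0 in all libraries, against 306 of 7229 with a free span. The hemocyte markers were present, and Hml, which encodes the clotting protein hemolectin, had 11639, 11088 and 16061 CPM in the T315I libraries, against 10622, 12496 and 11629.8 CPM in the control libraries. Hml was high in every library and the groups overlapped (log2 fold change 0.16 ± 0.23, edgeR adjusted p = 0.598).

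Nearly as many genes were called as were not. By edgeR's quasi-likelihood test, 4915 genes (49.3% of those tested) were called at an adjusted p under 0.05, of which 2048 (20.5%) were higher in T315I and 2867 (28.7%) were lower. The falls were larger than the rises. At least a 2-fold rise was called for 640 genes (6.41%) and at least a 2-fold fall for 2485 genes (24.9%). Of the rises, 1408 were less than 2-fold, 495 were between 2-fold and 4-fold, and 26 exceeded 8-fold. Of the falls, 382 were less than 2-fold, 1233 were between 4-fold and 8-fold, and 297 exceeded 8-fold. The T315I and control libraries did not overlap in 5802 genes (58.1%), with T315I above in 3031 and below in 2771. Leaving out T315I replicate 2 or 3 lowered the calls to 1284 and 1287 higher and to 1868 and 1860 lower, and without control replicate 2 a rise of at least 2-fold was called for 420 genes. The counts also depended on the scaling between libraries. Scaling to the summed counts of plasmatocyte markers shifted the median log2 fold change of all tested genes to -0.47, against -0.02, and left 416 genes higher and 3485 lower. Those markers summed to 35370.0, 35810.0 and 44350.0 CPM in the T315I libraries, against 27480.0, 26470.0 and 29570.0 CPM in the control libraries. Scaling to them removes this difference and so lowers T315I against control for the other genes. Which scaling is nearer to the truth was not tested. In RNA of a mixed cell population, fewer cells of a type and less RNA per cell cannot be told apart.

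**Figure D1:**
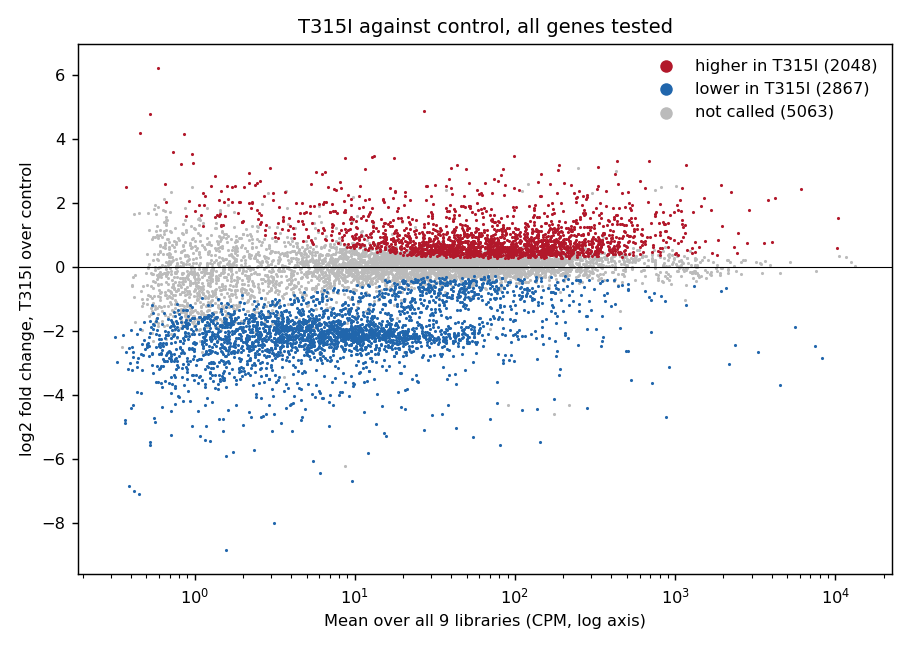
Each point is 1 of the 9978 genes tested, with its mean over all 9 libraries in CPM (log axis) and its log2 fold change, T315I over control. Genes called higher are red, genes called lower are blue and genes not called are grey; a dense band of falls lies near a log2 fold change of -2 among genes of low level, and the rises lie further to the right.

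The 2 directions held genes of different mean level over all 9 libraries. This mean includes the T315I libraries, so a fall itself moves a gene to a lower level and a rise to a higher one. How far this shaped the counts by level was not tested. Among genes with a mean level of 1 to 10 CPM, 1411 of 2781 were lower in T315I and 156 were higher. Between 100 and 1000 CPM the order was reversed, with 788 of 1805 genes higher and 158 lower. Of 152 genes over 1000 CPM, 45 (29.61%) were higher and 11 (7.24%) were lower. The shares over all genes tested were 20.5% higher and 28.7% lower. On the X chromosome 26.84% of tested genes were higher and 23.0% lower, with a median log2 fold change of 0.14. The large autosome arms held 18.24 to 21.02% higher and 28.3 to 32.29% lower. Of 17 tested genes on the Y chromosome 14 were lower and 0 higher by the edgeR test.

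The T315I libraries were much more alike than the control libraries. The median coefficient of variation over 3 libraries was 9.98% in T315I and 23.1% in control, and it was the larger one in T315I for 1940 of 9973 genes. The common biological coefficient of variation of edgeR was 0.132 in T315I and 0.406 in control. Correlations of log2 CPM between libraries were 0.983 to 0.988 within T315I, 0.921 to 0.953 within control and 0.832 to 0.932 between the groups. Control replicate 3 stood apart from the other controls. Among the genes called higher, it was the control library closest to T315I in 81.45%. Among the genes called lower, control replicate 1 was closest in 58.74% and control replicate 3 in 34.91%. Genes called lower were also the more variable ones, with a median coefficient of variation of 25.16% in T315I and 51.0% in control, against 6.28% and 19.34% for genes called higher. This measure also moved with level. For all tested genes at 1 to 10 CPM its medians were 24.66% in T315I and 46.32% in control. At 100 to 1000 CPM they were 5.43% and 15.24%. The part of level in the difference between falls and rises was not tested.

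**Figure D2:**
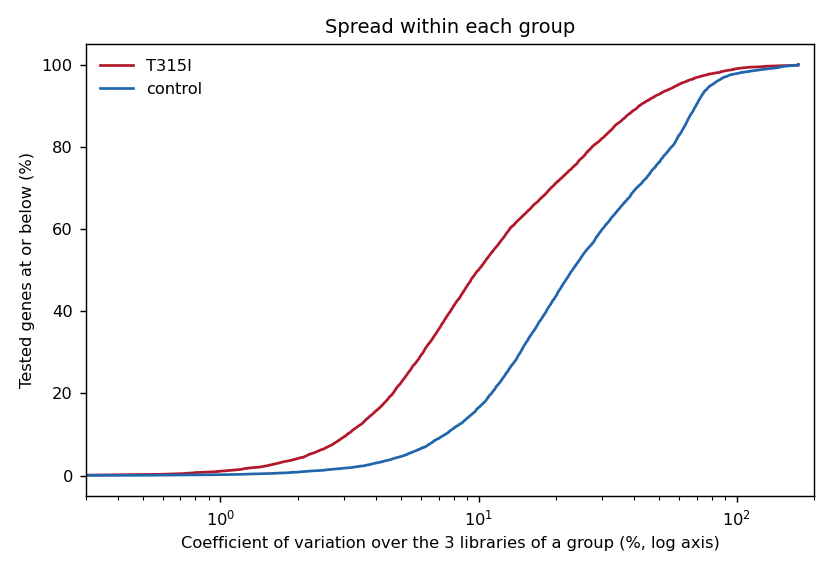
Cumulative share of tested genes (%) by their coefficient of variation over the 3 libraries of a group (%, log axis), in red for T315I and in blue for control. The T315I curve lies to the left of the control curve, with medians of 9.98% and 23.1%.

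Genes of adhesion and of the cytoskeleton that mark lamellocytes were among the strongest rises. Of 14 lamellocyte markers, 12 were tested, 9 were called higher (75.0%, against 20.5% over all genes) and 1 lower. The median log2 fold change was 2.12 against -0.02 over all genes. The summed level of the list was 26180.0, 31810.0 and 29210.0 CPM in the T315I libraries, against 4515, 4529 and 12340.0 CPM in the control libraries. Control replicate 3 lay between the other controls and the T315I libraries. The integrin subunit gene ItgaPS5 had 1805, 1564 and 1845 CPM in the T315I libraries, against 25.3, 23.4 and 516 CPM in the control libraries (log2 fold change 3.20 ± 1.03, edgeR adjusted p = 0.0287). The related ItgaPS4 had 1037, 1328 and 1046 CPM in the T315I libraries, against 7.38, 26.5 and 558 CPM in the control libraries. The ItgaPS4 groups did not overlap, yet the gene was not called (log2 fold change 2.52 ± 1.16, edgeR adjusted p = 0.0983), with 558 CPM in control replicate 3 alone. The lamellocyte phenoloxidase gene PPO3 had 779, 918 and 751 CPM in the T315I libraries, against 37.3, 47.5 and 295 CPM in the control libraries (log2 fold change 2.68 ± 0.68). PPO3 was high in all T315I libraries and spread over nearly an order of magnitude in the controls. Without control replicate 3 the list had 11 members called higher and a median log2 fold change of 2.85. The further markers atilla and Tret1-1 were at 0 in all libraries and lie wholly within the span of other genes. Leaving out 1 library moved the fold change by over 1.5-fold (log2 fold change without it in parentheses): without control replicate 3 for ItgaPS5 (6.15), ItgaPS4 (6.01) and PPO3 (4.25). The call was lost, with the edgeR adjusted p in parentheses, for ItgaPS5 without control replicate 2 or T315I replicate 1, 2 or 3 (0.0578 to 0.0694).

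Genes that join integrins to actin and microtubules rose as well. The talin gene rhea had 4502, 5271 and 5549 CPM in the T315I libraries, against 752, 844 and 1988 CPM in the control libraries (log2 fold change 2.1 ± 0.36, edgeR adjusted p = 0.00388). The spectraplakin gene shot, which links actin to microtubules, had 6864, 9463 and 8512 CPM in the T315I libraries, against 757, 932 and 2858 CPM in the control libraries (log2 fold change 2.45 ± 0.48). Filamin, encoded by cher, had 4752, 6056 and 5698 CPM in the T315I libraries, against 678, 669 and 2355 CPM in the control libraries (log2 fold change 2.16 ± 0.46). All T315I libraries lay above all controls for these 3 genes, and control replicate 3 was the highest control in each. Of the 7 integrin genes, 4 rose (57.14%, against 20.5% over all genes), among them the beta subunit mys (log2 fold change 1.72 ± 0.34) and the alpha subunit mew (1.31 ± 0.25). The alpha subunit gene if, known for muscle attachment, fell, with 21.1, 30.8 and 28.1 CPM in the T315I libraries, against 169.7, 120.5 and 75.3 CPM in the control libraries (log2 fold change -2.19 ± 0.28). The kinase gene msn rose by 1.12 ± 0.20 on the log2 scale, the trehalase gene Treh by 1.24 ± 0.28, and the beta-tubulin gene betaTub60D by 1.08 ± 0.23. The formin gene Fhos was the 1 lamellocyte marker that fell (-1.08 ± 0.24). The water channel gene Drip had 385, 475 and 378 CPM in the T315I libraries, against 9.96, 19.3 and 216 CPM in the control libraries and missed the threshold (edgeR adjusted p = 0.0550). With 1 library left out, edgeR called 2 integrin genes higher without control replicate 2 or T315I replicate 2 or 3. After scaling to plasmatocyte markers 2 integrin genes were higher, and DESeq2, no filter or the fit of T315I and control alone also called 2. A shift of over 1.5-fold came from 1 library (log2 fold change without it in parentheses): without control replicate 3 for shot (3.28) and cher (3.02).

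**Figure D3:**
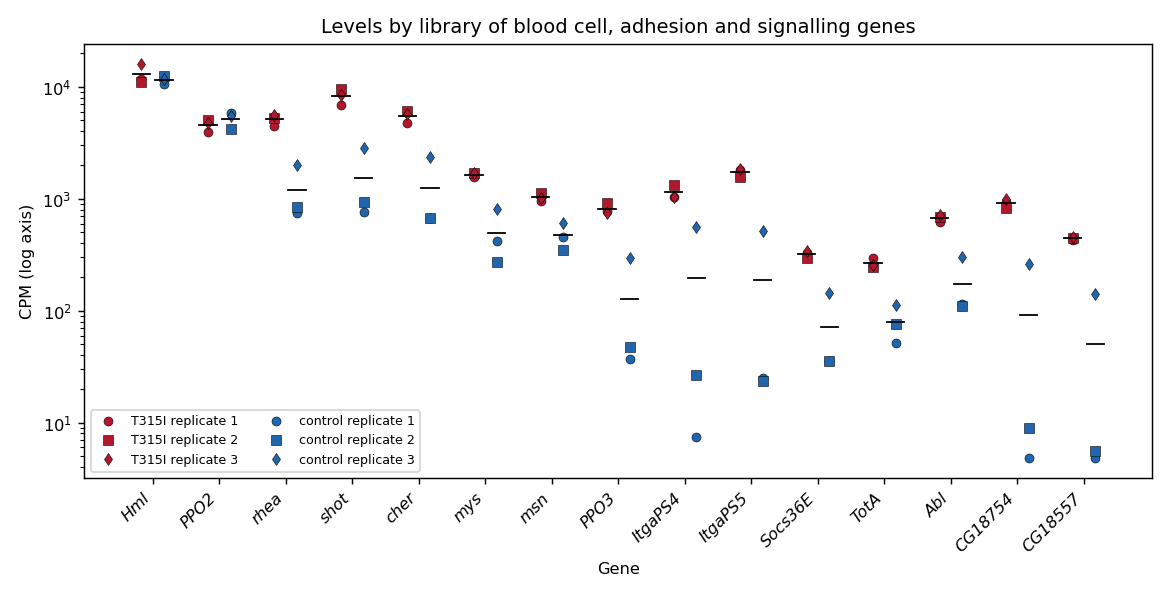
Level in CPM (log axis) of 15 genes, with T315I libraries in red on the left of each pair and control libraries in blue on the right; symbols mark the replicate number and black bars the group mean. Hml and PPO2 overlap between the groups, while for the other 13 genes every T315I library lies above every control library and control replicate 3 is the highest control.

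Markers of plasmatocytes and crystal cells differed less than those of lamellocytes. Of 13 plasmatocyte markers, 5 rose (38.46%, against 20.5% over all genes) and 2 fell (15.38%, against 28.7%), and the median log2 fold change was 0.16. The phagocytosis receptor gene NimC1 had 951, 1116 and 955 CPM in the T315I libraries, against 324, 259 and 589 CPM in the control libraries (log2 fold change 1.37 ± 0.27, edgeR adjusted p = 0.00560). The engulfment receptor drpr (1.14 ± 0.17), the scavenger receptor Sr-CI (1.35 ± 0.29), the surface protein gene He (1.00 ± 0.21) and the matrix gene Ppn (1.54 ± 0.31) also rose. The adhesion protein genes Glt (-1.07 ± 0.20) and Tig (-0.60 ± 0.19) fell. The receptor genes eater, crq and Pvr, the peroxidasin gene Pxn and the GATA factor gene srp had log2 fold changes between -0.17 and 0.27 and were not called. Of 6 tested crystal cell markers, the transcription factor genes lz (0.86 ± 0.19) and klu (2.33 ± 0.60) rose and CG7860 fell (-2.08 ± 0.24). The phenoloxidase gene PPO2 had 3919, 5065 and 4750.4 CPM in the T315I libraries, against 5817, 4182 and 5483 CPM in the control libraries, which overlapped, while PPO1 was at 0 in all libraries and lies wholly within other genes. The size of the change moved by over 1.5-fold (log2 fold change without it in parentheses): without control replicate 3 for klu (3.68). Without single libraries the edgeR call was lost, with adjusted p in parentheses, for Tig without control replicate 1 or T315I replicate 1, 2 or 3 (0.0522 to 0.130).

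Most of the tested JAK/STAT genes rose. 11 of 14 tested members (78.57%, against 20.5% over all genes) were called higher and 0 lower by the edgeR test. The median log2 fold change was 1.42, and 7 were called higher after scaling to plasmatocyte markers. Among ligands, upd3 had 8.19, 4.43 and 4.04 CPM in the T315I libraries, against 2.58, 0.882 and 1.798 CPM in the control libraries (log2 fold change 1.70 ± 0.45), a rise at low level. The receptor gene dome rose by 1.10 ± 0.16 and the transcription factor gene Stat92E by 0.42 ± 0.13 on the log2 scale, and the Stat92E value turned to -0.03 after that scaling. The kinase gene hop missed the threshold (0.40 ± 0.15, edgeR adjusted p = 0.0560). The feedback inhibitor gene Socs36E had 331, 296 and 342 CPM in the T315I libraries, against 35.6, 35.6 and 143 CPM in the control libraries (log2 fold change 2.17 ± 0.48, edgeR adjusted p = 0.00750), and the phosphatase gene Ptp61F rose by 1.37 ± 0.22. Among targets, the stress peptide gene TotA had 298, 247 and 257 CPM in the T315I libraries, against 51.5, 75.3 and 112 CPM in the control libraries (log2 fold change 1.74 ± 0.27). The thioester protein gene Tep1 had 1458, 1334 and 1267 CPM in the T315I libraries, against 449, 376 and 643 CPM in the control libraries (log2 fold change 1.47 ± 0.20). The lower-level Turandot genes TotM and TotZ had the steepest rises of the family, with control means that rest on control replicate 3: TotM had 23.4, 17.7 and 28.8 CPM in the T315I libraries, against 0, 0.2205 and 5.396 CPM in the control libraries, and TotZ had 11.7, 8.23 and 10.96 CPM in the T315I libraries, against 0, 0 and 3.502 CPM in the control libraries. Counts that 1 left-out library moved by over 1.5 times were 7 JAK/STAT genes higher without T315I replicate 1. By over 1.5-fold, single libraries moved the fold change (log2 fold change without it in parentheses): without control replicate 3 for Socs36E (3.17), TotM (7.32) and TotZ (10.08), without control replicate 2 for TotZ (2.37). Calls lost on leaving out 1 library (edgeR adjusted p in parentheses) were those of upd3 without T315I replicate 1 (0.0514), Stat92E without control replicate 2 or T315I replicate 1, 2 or 3 (0.0573 to 0.0726), TotZ without control replicate 2 or T315I replicate 1, 2 or 3 (0.0587 to 0.0839).

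Immune signalling genes mostly rose, while antimicrobial peptide genes were called in both directions. Of 19 tested Toll and IMD genes, 12 rose (63.16%, against 20.5% over all genes) and 1 fell (median log2 fold change 0.49), and 4 rose after scaling to plasmatocyte markers. The receptor gene Tl had 627, 661 and 598 CPM in the T315I libraries, against 211, 177 and 293 CPM in the control libraries (log2 fold change 1.47 ± 0.20). The NF-kappaB gene Dif had 150.1, 141 and 142 CPM in the T315I libraries, against 27.9, 21.7 and 64.1 CPM in the control libraries (log2 fold change 1.92 ± 0.35), the kinase gene IKKbeta rose by 1.08 ± 0.19, and the adaptor gene tub fell (-0.78 ± 0.16). Of 14 tested antimicrobial peptide genes, 1 rose and 5 fell (35.7%, against 28.7% over all genes), with a list median of 0.24 on the log2 scale. Diptericin B, encoded by DptB, had 4.801, 2.04 and 4.24 CPM in the T315I libraries, against 115.3, 87.3 and 64.6 CPM in the control libraries (log2 fold change -4.58 ± 0.39, edgeR adjusted p = 0.00102), and this was among the smallest p-values of the comparison. The cecropin gene CecC had 87.5, 40.01 and 63.6 CPM in the T315I libraries, against 11.6, 19.7 and 22.5 CPM in the control libraries (log2 fold change 1.81 ± 0.31). Drosomycin, encoded by the Toll target Drs, had 106, 37.9 and 58.9 CPM in the T315I libraries, against 41.1, 78.1 and 27.7 CPM in the control libraries, which overlapped and was not called. Leaving out 1 library moved the fold change by over 1.5-fold (log2 fold change without it in parentheses): without control replicate 3 for Dif (2.54).

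The fly homologue of the transgene's kinase rose as well. Abl had 623, 683 and 713 CPM in the T315I libraries, against 114, 109 and 299 CPM in the control libraries (log2 fold change 1.95 ± 0.38, edgeR adjusted p = 0.00542); whether reads of the human transgene were aligned to Abl was not tested. Of 17 genes listed as Abl partners, 8 rose (47.06%, against 20.5% over all genes), among them the Wave regulator Abi (0.97 ± 0.16) and the exchange factor gene trio (1.02 ± 0.18). The guidance receptor gene robo2 fell, with 13.8, 18.6 and 12.001 CPM in the T315I libraries, against 112, 84.9 and 48.8 CPM in the control libraries (log2 fold change -2.46 ± 0.35), and the adaptor gene dock fell (-0.51 ± 0.15). Of 23 tested actin nucleation genes, 15 rose and 0 fell by the edgeR test; the Wave complex genes Hem (0.86 ± 0.12) and Cyfip (0.80 ± 0.13) and the GTPase gene Cdc42 (1.01 ± 0.18) were among them. After scaling to plasmatocyte markers, 2 Abl partners and 1 actin nucleation gene stayed higher, and the list medians were -0.07 and 0.03. Of 10 tested tubulin genes 6 rose, including betaTub97EF (1.96 ± 0.49), and 1 fell, the testis form betaTub85D (-2.09 ± 0.48); 1 rose after that scaling. On leaving out single libraries the calls numbered 5 Abl partners higher without T315I replicate 2 and 2 to 3 tubulin genes higher without T315I replicate 1, 2 or 3. A shift of over 1.5-fold came from 1 library (log2 fold change without it in parentheses): without control replicate 3 for Abl (2.58) and betaTub97EF (3.00), without control replicate 2 for betaTub85D (-1.46). Leaving out single libraries ended the edgeR call (adjusted p in parentheses) of dock without control replicate 2 or T315I replicate 1, 2 or 3 (0.0518 to 0.0644).

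Signalling lists of Ras, JNK and TOR leaned upward by smaller steps, against 20.5% higher and 28.7% lower over all genes. Ras/MAPK genes rose in 7 of 18, and the ETS factor gene pnt had 523, 464 and 597 CPM in the T315I libraries, against 140.0, 137 and 269 CPM in the control libraries (log2 fold change 1.53 ± 0.33). The small GTPase gene Ras85D rose by 0.96 ± 0.20, while the receptor gene Egfr fell by this test (log2 fold change -1.22 ± 0.33). JNK genes rose in 6 of 14, and the metalloprotease gene Mmp1, a JNK target, had 356, 347 and 449 CPM in the T315I libraries, against 92.4, 99.2 and 206 CPM in the control libraries (log2 fold change 1.53 ± 0.30). The kinase gene bsk rose by 0.66 ± 0.15 and the receptor gene grnd fell (-4.37 ± 0.98) at under 3 CPM. PI3K and TOR genes rose in 6 of 18, among them the kinase gene Pi3K92E (0.81 ± 0.14), whereas Thor, the translation repressor 4E-BP, fell (-2.06 ± 0.42). After scaling to plasmatocyte markers, 2 Ras/MAPK, 2 JNK and 0 PI3K and TOR genes were called higher. Single left-out libraries gave 4 Ras/MAPK genes higher without T315I replicate 3 and 3 JNK genes higher without T315I replicate 2. The size of the change moved by over 1.5-fold (log2 fold change without it in parentheses): without T315I replicate 1 for grnd (-5.21). The call was lost, with the edgeR adjusted p in parentheses, for Egfr without T315I replicate 3 (0.0524).

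Genes for DNA replication and for ribosome making rose broadly but by small amounts. Of 34 tested DNA replication genes, 26 rose (76.47%, against 20.5% over all genes) and 0 fell by the edgeR test (median log2 fold change 0.79). The polymerase gene PolA1 had 57.6, 66.5 and 63.1 CPM in the T315I libraries, against 26.6, 19.5 and 33.98 CPM in the control libraries (log2 fold change 1.22 ± 0.18), and the helicase gene Mcm3 had 56.3, 58.5 and 51.2 CPM in the T315I libraries, against 28.96, 16.2 and 29.7 CPM in the control libraries (log2 fold change 1.15 ± 0.21). Cyclin E, encoded by CycE, rose by 0.69 ± 0.18. Of 37 mitosis genes 15 rose and 0 fell, and by smallest p the first were aurB (1.32 ± 0.21) and the condensin genes glu (1.24 ± 0.19) and Cap-D2 (1.16 ± 0.19). Of 18 tested nucleolar genes 15 rose and 0 fell (median 0.84 on the log2 scale). The nucleolar gene Nopp140 had 217, 249.7 and 259 CPM in the T315I libraries, against 70.5, 75.1 and 119 CPM in the control libraries (log2 fold change 1.45 ± 0.20), and Nop56 had 214, 219 and 213 CPM in the T315I libraries, against 82.5, 67.9 and 129 CPM in the control libraries (log2 fold change 1.20 ± 0.22). In none of these 4 genes with values by library did the groups overlap. After scaling to plasmatocyte markers, 3 replication, 8 mitosis and 3 nucleolar genes were called higher, with medians of 0.36, -0.05 and 0.39 against -0.47 over all genes. Without single libraries the edgeR call was lost, with adjusted p in parentheses, for CycE without T315I replicate 2 (0.0514).

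Enzymes that charge transfer RNA were called in both directions. Of 29 tested aminoacyl-tRNA synthetase genes, 14 rose (48.28%, against 20.5% over all genes) and 3 fell. The rises of smallest p were cytosolic enzymes, ValRS (1.10 ± 0.19), SerRS (0.86 ± 0.14) and LeuRS (0.78 ± 0.14). The 3 that fell were the mitochondrial forms TrpRS-m (-1.25 ± 0.28), ValRS-m (-1.05 ± 0.22) and CysRS-m (-1.03 ± 0.31), while the mitochondrial forms ArgRS-m (0.48 ± 0.18) and TyrRS-m (0.64 ± 0.15) rose. TrpRS-m had 58.6, 54.7 and 57.9 CPM in the T315I libraries, against 72.5, 195 and 137 CPM in the control libraries, with control replicate 2 the highest. Spliceosome genes rose in 9 of 22, with Prp8 (0.78 ± 0.16) of smallest p, and Polycomb and SWI/SNF genes in 10 of 20, with polybromo (0.59 ± 0.12) of smallest p in its list. After scaling to plasmatocyte markers these 3 lists had 1, 0 and 0 genes called higher. With 1 library left out, edgeR called 5 spliceosome genes higher without T315I replicate 2 or 3 and 5 to 6 Polycomb and SWI/SNF genes higher without T315I replicate 2 or 3. Calls lost on leaving out 1 library (edgeR adjusted p in parentheses) were those of CysRS-m without control replicate 2 or T315I replicate 1, 2 or 3 (0.0520 to 0.0680), ArgRS-m without control replicate 2 or 3 or T315I replicate 1, 2 or 3 (0.0592 to 0.157).

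Ribosomal proteins, the respiratory chain and the proteasome differed little in sum. The counts of called members below stand against 20.5% higher and 28.7% lower over all genes tested. Cytosolic ribosomal protein genes summed to 97520.0, 97860.0 and 96320.0 CPM in the T315I libraries, against 112200.0, 96560.0 and 90240.0 CPM in the control libraries, and 2 of 88 rose and 6 fell. The summed proteasome genes were 5869, 5828 and 5566 CPM in the T315I libraries, against 5390.0, 5412 and 5326 CPM in the control libraries, and the summed nuclear respiratory genes were 7536, 7185 and 7128 CPM in the T315I libraries, against 7583, 6806 and 7057 CPM in the control libraries; for each of these 3 lists the highest and lowest library differed by less than 1.5-fold. Without control replicate 3, 11 ribosomal protein genes were called lower. In the proteasome and respiratory lists the falls lay in genes whose symbols mark duplicated copies, many of them known from testis. All 12 proteasome genes that fell carry a symbol of a duplicate (T or R), of 13 such genes tested, while 0 of 31 other members fell and 3 rose. All 12 respiratory genes that fell carry the suffix L of a duplicate, of 12 tested, while 0 of 62 others fell. This split was made after the calls were seen. Prosbeta5R2 had 8.61, 4.15 and 5.54 CPM in the T315I libraries, against 15.7, 85.3 and 41.7 CPM in the control libraries (log2 fold change -2.97 ± 0.53), and ATPsynbetaL had 5.44, 2.11 and 4.24 CPM in the T315I libraries, against 8.301, 30.2 and 25.2 CPM in the control libraries (log2 fold change -2.44 ± 0.50). Control replicate 2 was the highest library for the summed proteasome duplicates, with 99.1, 67.6 and 80.8 CPM in T315I against 109, 485 and 303 CPM in control. Without control replicate 2, 12 proteasome and 7 respiratory genes were called lower. Without T315I replicate 2 the numbers were 8 and 5, and without T315I replicate 3 they were 11 and 5. Y-linked fertility genes moved with them: 12 of 12 fell, and 6 fell without control replicate 2 and 7 without T315I replicate 2. With every library thinned to the shallowest, 11 proteasome, 6 respiratory and 5 Y-linked genes were called lower. A filter of 5 CPM in 3 libraries also left 5 Y-linked genes lower. The Y-linked dynein gene kl-3 had 61.6, 75.9 and 75.3 CPM in the T315I libraries, against 158, 496 and 203 CPM in the control libraries (log2 fold change -2.01 ± 0.37). The sex of the pooled larvae is not given in the labels, and the part of testis RNA or of sex in these values was not tested. By over 1.5-fold, single libraries moved the fold change (log2 fold change without it in parentheses): without control replicate 2 for Prosbeta5R2 (-2.24) and kl-3 (-1.35).

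**Figure D4:**
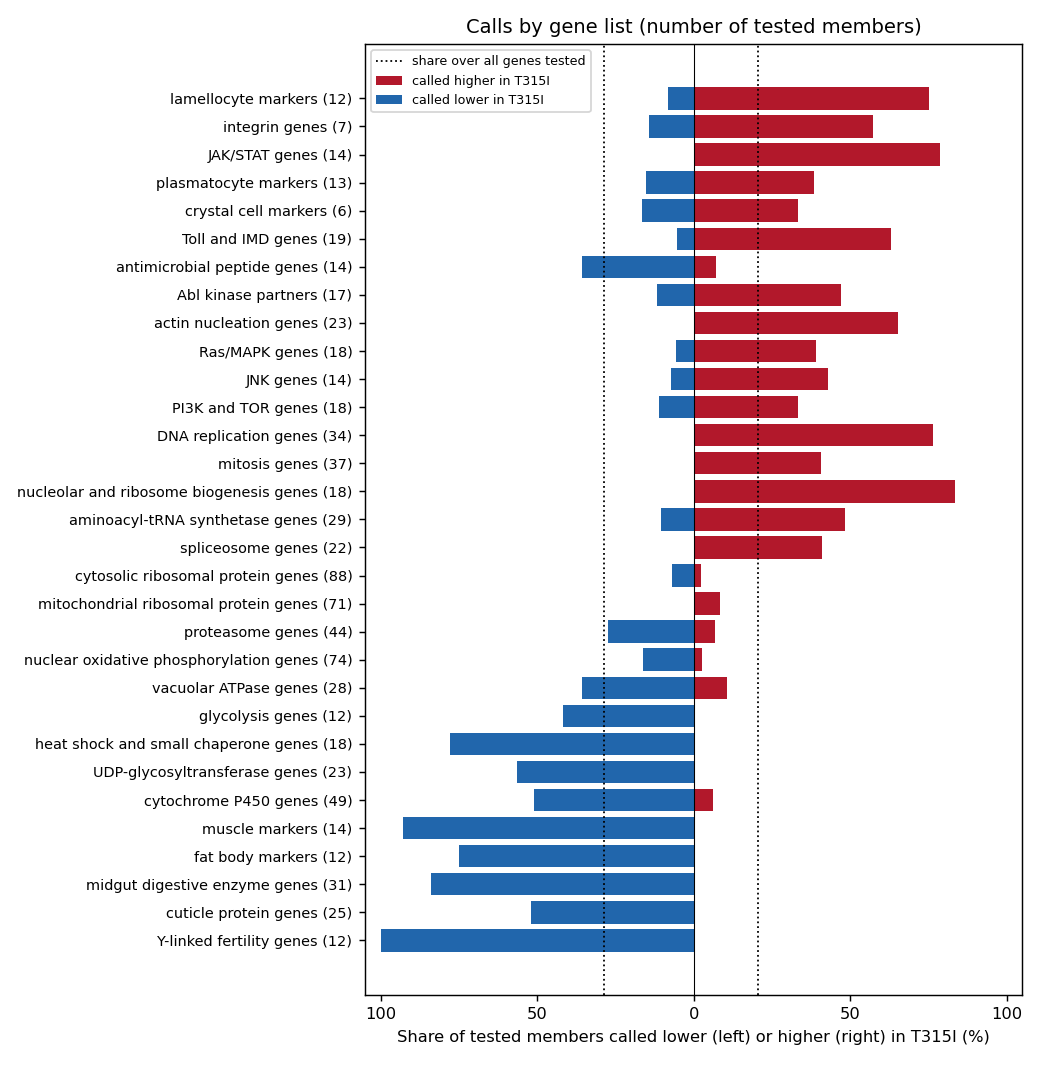
Share (%) of the tested members of 31 gene lists called higher (red, right) or lower (blue, left) in T315I than in control, with the number of tested members in parentheses. Dotted lines mark the shares over all genes tested, 20.5% higher and 28.7% lower.

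Genes of fat body and muscle, tissues that surround the blood, were lower in T315I. Fat body markers fell in 9 of 12 tested (75.0%, against 28.7% over all genes), with a median log2 fold change of -2.54. Their summed level was 8848, 13030.0 and 9663 CPM in the T315I libraries, against 99430.0, 63400.0 and 40200.0 CPM in the control libraries. The larval serum protein gene Lsp1beta had 2335, 4035 and 3232 CPM in the T315I libraries, against 24834, 17091 and 10912 CPM in the control libraries (log2 fold change -2.46 ± 0.31). The lipid carrier gene apolpp had 1395, 1331 and 921 CPM in the T315I libraries, against 10195, 6395 and 6373 CPM in the control libraries (log2 fold change -2.66 ± 0.30), and Fbp2 had 156, 79.7 and 119.7 CPM in the T315I libraries, against 1559.8, 1712 and 845 CPM in the control libraries (log2 fold change -3.53 ± 0.39). No T315I library reached the lowest control for these genes. Muscle markers fell in 13 of 14 (median -2.75 on the log2 scale). The myosin light chain gene Mlc1 had 10.8, 14.1 and 13.9 CPM in the T315I libraries, against 136, 165 and 63.8 CPM in the control libraries (log2 fold change -3.23 ± 0.32), and the muscle actin gene Act87E had 6.99, 8.58 and 9.46 CPM in the T315I libraries, against 50.2, 68.9 and 39.1 CPM in the control libraries (log2 fold change -2.66 ± 0.23, edgeR adjusted p = 0.00102). The arginine kinase gene Argk1, abundant in muscle, had 34.2, 27.003 and 33.1 CPM in the T315I libraries, against 309, 265 and 148 CPM in the control libraries (log2 fold change -2.94 ± 0.25). These are markers of tissues other than blood; how far RNA of other tissues in the bled sample bears on the falls was not tested. A fit scaled without the genes of other tissues called 1999 genes higher and 2896 lower.

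Gut and cuticle genes were lower too, with more spread, against a share of 28.7% lower over all genes. Midgut digestive enzyme genes fell in 26 of 31, with a median log2 fold change of -3.65, or -2.52 without control replicate 3. Counts that 1 left-out library moved by over 1.5 times were 13 to 17 midgut genes lower without control replicate 3 or T315I replicate 1, 2 or 3. The amylase gene Amy-d had 0.565, 0.211 and 0 CPM in the T315I libraries, against 59.03, 14.4 and 8.898 CPM in the control libraries (log2 fold change -6.69 ± 1.10). The protease gene Jon44E had 0, 0.0703 and 0 CPM in the T315I libraries, against 1.66, 1.76 and 21.3 CPM in the control libraries (log2 fold change -8.00 ± 1.66, edgeR adjusted p = 0.00613), and its T315I values are at or under the level of 3 counts, so that the fitted size depends on few counts. Near-identical copies in the Jon and Amy families may compete for reads, which makes single members uncertain. Cuticle protein genes fell in 13 of 25, with Lcp1 at 1.48, 1.27 and 1.37 CPM in the T315I libraries, against 42.8, 40.02 and 12.5 CPM in the control libraries (log2 fold change -4.52 ± 0.52). Glue genes of the salivary gland fell in 2 of 7 (28.57%), near the share over all genes, and their summed levels overlapped between the groups. They fell in 0 without control replicate 3, whose summed glue level was 3857 CPM against 32.1 and 195.9 CPM in the other controls. Genes of the Eig71E family fell in 6 of 7, and Eig71Ed had 0, 0.0703 and 0.1305 CPM in the T315I libraries, against 3.14, 2.87 and 7.86 CPM in the control libraries. The basement membrane gene trol had 139.5, 192 and 203 CPM in the T315I libraries, against 835, 717 and 493 CPM in the control libraries (log2 fold change -1.94 ± 0.22). Of 14 tested basement membrane genes 3 fell, trol among them, and 3 rose (21.43% each, against 28.7% lower and 20.5% higher over all genes). The median of the glue genes was -4.32, or -1.05 without control replicate 3, and that of the Eig71E genes was -4.09, or -6.23 without T315I replicate 3. Leaving out 1 library moved the fold change by over 1.5-fold (log2 fold change without it in parentheses): without control replicate 1 for Amy-d (-5.44), without T315I replicate 1 for Amy-d (-7.92), without T315I replicate 3 for Amy-d (-6.10) and Eig71Ed (-6.69), without control replicate 3 for Jon44E (-5.74) and Eig71Ed (-5.28), without T315I replicate 2 for Jon44E (-9.73).

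**Figure D5:**
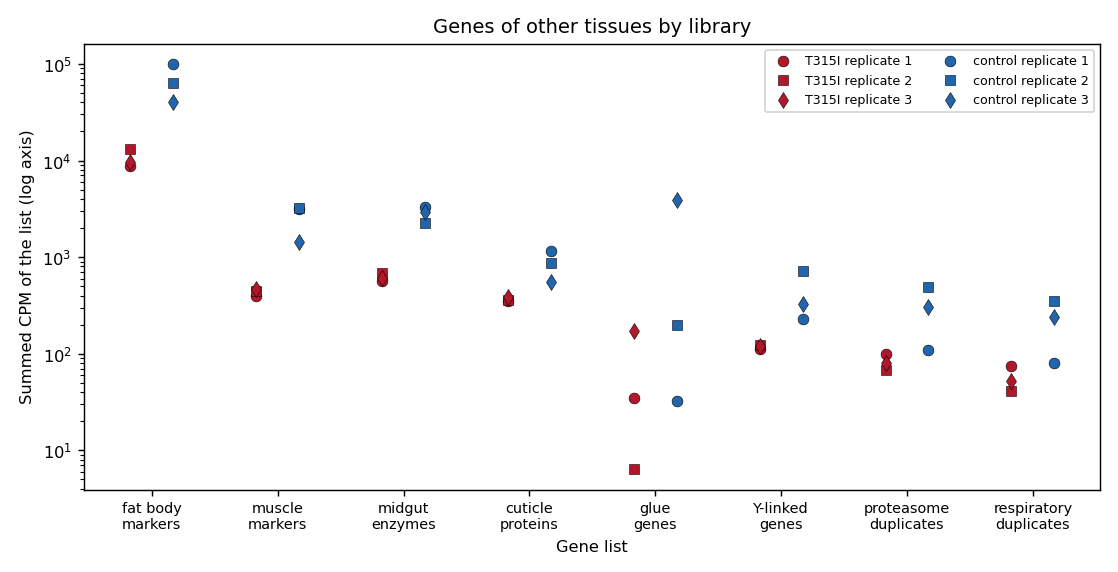
Summed level in CPM (log axis) of 8 gene lists in each library, T315I in red on the left and control in blue on the right, with symbols for the replicate number. Except for the glue genes, every T315I library lies below every control library in these lists.

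Most heat shock genes fell, and several metabolic lists held falls against a share of 28.7% lower over all genes. Heat shock and small chaperone genes fell in 14 of 18 (median log2 fold change -1.95). Without control replicate 1 the median was -1.18 and 10 fell, the fit of T315I and control alone called 11 lower and thinning left 9. Hsp23 had 985, 979 and 927 CPM in the T315I libraries, against 7792, 5129 and 2784 CPM in the control libraries (log2 fold change -2.44 ± 0.36), and Hsp26 had 72.7, 74.96 and 94.3 CPM in the T315I libraries, against 577, 343 and 274 CPM in the control libraries (log2 fold change -2.30 ± 0.36). Among the controls Hsp23 was highest in replicate 1, as the summed fat body markers were. Glycolysis genes fell in 5 of 12. The triosephosphate isomerase gene Tpi had 87.4, 96.8 and 79.8 CPM in the T315I libraries, against 245, 269 and 167 CPM in the control libraries (log2 fold change -1.37 ± 0.19), and the log2 fold change was -1.21 for Gapdh1 and -1.06 for Pgi. UDP-glycosyltransferase genes fell in 13 of 23, and cytochrome P450 genes in 25 of 49 with 3 rises. Ecdysone response genes fell in 4 of 11, and Eip78C of this list had 52.9, 58.4 and 56.2 CPM in the T315I libraries, against 269.9, 244 and 137 CPM in the control libraries (log2 fold change -1.96 ± 0.31). The odorant-binding protein gene Obp99b had 316, 265 and 203 CPM in the T315I libraries, against 3035, 2675 and 1068 CPM in the control libraries (log2 fold change -3.11 ± 0.37), and 8 of 11 tested members of its family fell. On leaving out single libraries the calls numbered 1 cytochrome P450 gene higher without control replicate 2 or T315I replicate 3 and 1 ecdysone response gene lower without control replicate 1 or T315I replicate 1, 2 or 3.

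The largest rises among named genes spanned low and high levels. The one with the largest fold change among genes of at least 2 CPM in T315I was dpr2, a neuronal immunoglobulin protein gene, which had 18.1, 21.9 and 182 CPM in the T315I libraries, against 0.553, 3.75 and 2.75 CPM in the control libraries (log2 fold change 4.88 ± 1.02, edgeR adjusted p = 0.00640). T315I replicate 3 alone gave its high mean. The sex peptide receptor gene SPR had 8.68, 18.002 and 17.7 CPM in the T315I libraries, against 0.369, 0.992 and 2.37 CPM in the control libraries (log2 fold change 3.45 ± 0.69), and the zona pellucida domain gene zye had 602, 483 and 814 CPM in the T315I libraries, against 26.7, 40.02 and 123 CPM in the control libraries (log2 fold change 3.31 ± 0.61). The zye rise was the more abundant one. That no control reached the T315I range was a condition of its choice. The protease gene Sp212 had 50.8, 54.6 and 60.7 CPM in the T315I libraries, against 0.553, 0.661 and 15.5 CPM in the control libraries (log2 fold change 3.20 ± 0.83), and the gene hebe had 265, 248 and 238 CPM in the T315I libraries, against 7.93, 7.06 and 74.97 CPM in the control libraries (log2 fold change 3.04 ± 0.76). Other large rises were in Liprin-gamma (3.20 ± 0.97), the myosuppressin receptor gene MsR2 (3.08 ± 0.89), sano (3.07 ± 0.44) and the sulfotransferase gene St2 (3.42 ± 0.88). A shift of over 1.5-fold came from 1 library (log2 fold change without it in parentheses): without T315I replicate 3 for dpr2 (3.03), without control replicate 3 for SPR (4.30), zye (4.23), Sp212 (6.45), hebe (5.06), Liprin-gamma (6.10), MsR2 (5.57), sano (3.80) and St2 (7.44), without control replicate 2 for St2 (2.81). Leaving out single libraries ended the edgeR call (adjusted p in parentheses) of Liprin-gamma without control replicate 2 or T315I replicate 2 or 3 (0.0578 to 0.0607), MsR2 without control replicate 2 or T315I replicate 2 or 3 (0.0552 to 0.0637).

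Genes known by annotation number only were called lower more often than named genes. Of 3716 tested genes with a CG number, 547 (14.72%) were higher and 1434 (38.59%) lower, with a median log2 fold change of -0.29. Of 5924 genes with a name, 1459 (24.63%) were higher and 1327 (22.4%) lower. Of 239 long noncoding RNA genes with a CR number, 33 were higher and 86 lower. Coordinates below are of assembly BDGP6.54, the same sequence as dm6. The most abundant of the 10 largest unnamed rises was CG18754 (FBgn0042106, chromosome 3R, 23684057 to 23686537 on the plus strand), with 927, 818 and 989.9 CPM in the T315I libraries, against 4.796, 9.04 and 259 CPM in the control libraries (log2 fold change 3.32 ± 1.18). Its upstream neighbour CG16710 (FBgn0039101, chromosome 3R, 23682503 to 23683980 on the plus strand) had 58.1, 56.5 and 59.8 CPM in the T315I libraries, against 1.11, 1.87 and 16.3 CPM in the control libraries (log2 fold change 3.09 ± 0.70). Both were more than 3-fold higher in every T315I library than in control replicate 3, and much lower again in the other controls. The gene CG18557 (FBgn0031470, chromosome 2L, 2844601 to 2845734 on the minus strand) had 431, 448 and 455 CPM in the T315I libraries, against 4.796, 5.62 and 140.2 CPM in the control libraries (log2 fold change 3.13 ± 1.05), and CG1648 (FBgn0033446, chromosome 2R, 9810974 to 9820053 on the minus strand) had 611, 521 and 574 CPM in the T315I libraries, against 23.98, 23.7 and 176 CPM in the control libraries (log2 fold change 2.92 ± 0.70). The noncoding gene lncRNA:CR44316 (FBgn0265375, chromosome 2R, 12320594 to 12320912 on the minus strand) had 153, 102 and 166 CPM in the T315I libraries, against 1.84, 2.09 and 31.8 CPM in the control libraries (log2 fold change 3.49 ± 0.85). In each of these 3 genes control replicate 3 was again the highest control. The pseudogene CR16735 (FBgn0037666, chromosome 3R, 9253545 to 9254683 on the plus strand) had 25.7, 21.9 and 24.7 CPM in the T315I libraries, against 0.184, 0.1102 and 5.87 CPM in the control libraries (log2 fold change 3.40 ± 0.84), and it lies next to St2 on the same strand. The other 4 of these rises, CG15740 (3.08 ± 0.84), CG3906 (3.09 ± 0.73), CG14105 (2.97 ± 0.91) and CG17350 (2.92 ± 0.81), all had at most 1.21 CPM in control replicates 1 and 2. The size of the change moved by over 1.5-fold (log2 fold change without it in parentheses): without control replicate 3 for CG18754 (6.98), CG16710 (5.20), CG18557 (6.39), CG1648 (4.57), lncRNA:CR44316 (6.12), CR16735 (7.34), CG15740 (5.87), CG3906 (4.96), CG14105 (9.59) and CG17350 (5.56), without control replicate 2 for CR16735 (2.81) and CG14105 (2.37). The call was lost, with the edgeR adjusted p in parentheses, for CG18754 without control replicate 2 or T315I replicate 1, 2 or 3 (0.0757 to 0.0911), CG18557 without control replicate 2 or T315I replicate 1, 2 or 3 (0.0628 to 0.0765), CG14105 without T315I replicate 2 or 3 (0.0606 to 0.0659).

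Unnamed falls included 1 gene with no count in T315I. The noncoding gene lncRNA:CR45347 (FBgn0266886, chromosome 2L, 20562247 to 20575720 on the plus strand) had 0, 0 and 0 CPM in the T315I libraries, against 6.82, 4.74 and 2.27 CPM in the control libraries (edgeR adjusted p = 0.00178), and it was the only gene at 0 in all T315I libraries with at least 10 counts in each control library. No gene was at 0 in all controls with at least 10 counts in each T315I library. Its neighbour on the other strand, lncRNA:CR44909 (FBgn0266214, chromosome 2L, 20583656 to 20626206 on the minus strand), had 0.353, 0.211 and 0.1305 CPM in the T315I libraries, against 15.7, 22.6 and 10.3 CPM in the control libraries (log2 fold change -6.08 ± 0.64). Both were low in all T315I libraries and present in all controls. The most abundant of the 10 largest unnamed falls, CG34244 (FBgn0085273, chromosome 3L, 14235053 to 14235941 on the minus strand), had 1.2002, 1.05 and 1.24 CPM in the T315I libraries, against 43.3, 71.4 and 13.7 CPM in the control libraries (log2 fold change -5.19 ± 0.67). The others were CG4367 (-5.80 ± 1.19), CG31463 (-5.71 ± 1.25), lncRNA:CR43451 (-5.42 ± 1.17), CG7560 (-5.28 ± 1.02), CG42500 (-5.13 ± 0.56), CG13606 (-5.13 ± 0.72) and CG17105 (-5.12 ± 0.66), all under 0.5 CPM in every T315I library, so that their fitted sizes rest on few counts. Several of the smallest p-values also belonged to unnamed genes. CG42807 (FBgn0261989, chromosome 2R, 13570595 to 13572759 on the minus strand) had 28.3, 21.6 and 30.004 CPM in the T315I libraries, against 675, 453 and 281 CPM in the control libraries (log2 fold change -4.14 ± 0.33, edgeR adjusted p = 0.00102), and CG31337 had 58.4, 60.5 and 67.1 CPM in the T315I libraries, against 393, 369 and 233 CPM in the control libraries (log2 fold change -2.42 ± 0.22). In both the T315I libraries lay close together and far below all controls. By over 1.5-fold, single libraries moved the fold change (log2 fold change without it in parentheses): without control replicate 2 for CG34244 (-4.59) and lncRNA:CR43451 (-4.35), without T315I replicate 3 for CG4367 (-6.58), CG7560 (-6.07) and CG17105 (-5.74), without control replicate 1 for CG31463 (-3.94), without T315I replicate 2 for CG31463 (-7.22) and CG13606 (-5.84), without T315I replicate 1 for lncRNA:CR43451 (-8.40).

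The protein-coding genes with the highest level per kb of exon in T315I were largely not called. Act42A, a cytoplasmic actin gene, came first, with a mean of 7273 counts per kb of exon per M in T315I and 4849 in control. Its level was 11187, 12485 and 11807 CPM in the T315I libraries, against 7825, 6672 and 9156 CPM in the control libraries (log2 fold change 0.58 ± 0.16, edgeR adjusted p = 0.0167). The elongation factor gene eEF1alpha1 had 13004, 14453 and 13701 CPM in the T315I libraries, against 14549, 12141 and 13055 CPM in the control libraries, which overlapped, and Act5C had 11429, 12183 and 10394 CPM in the T315I libraries, against 9795, 7461 and 9170.2 CPM in the control libraries (edgeR adjusted p = 0.0629). The cofilin gene tsr rose by 0.43 ± 0.14 on the log2 scale, which turned to -0.02 after scaling to plasmatocyte markers, and the unnamed gene CG8501 rose by 0.64 ± 0.15. Also among the first 10, the genes RpL39, RpS27A, RpLP1 and sta encode ribosomal proteins and were not called. Without single libraries the edgeR call was lost, with adjusted p in parentheses, for Act42A without control replicate 2 or T315I replicate 2 or 3 (0.0527 to 0.0607), tsr without control replicate 2 or T315I replicate 1 or 3 (0.0837 to 0.102).

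Between the 2 forms of the transgene the same fit called 1 gene (0.01% of those tested). This was dpr4, a neuronal immunoglobulin protein gene, with 0.0706, 0.0703 and 0.0652 CPM in the T315I libraries, against 6.73, 26.5 and 15.95 CPM in the p210 libraries and 0.369, 0.441 and 0.0947 CPM in the control libraries (log2 fold change T315I over p210 -7.71 ± 0.74, edgeR adjusted p = 0.0159), a size that rests on 1 count in each T315I library. It was near 0 in all T315I and control libraries and detected in all p210 libraries. A fit of the T315I and p210 libraries alone, added after the data were seen, called 6 genes (0.0601%), dpr4 among them. Lower in T315I than in p210 was CG10407, with 22.03, 22.5 and 17.7 CPM in the T315I libraries, against 45.6, 55.2 and 50.9 CPM in the p210 libraries and 12.5, 16.1 and 17.1 CPM in the control libraries. The diptericin gene DptA had 1.62, 0.703 and 1.304 CPM in the T315I libraries, against 5.93, 6.798 and 11.9 CPM in the p210 libraries and 4.24, 21.5 and 14.2 CPM in the control libraries, so that p210 was the group near the control. The antisense gene asRNA:CR45600 had 1.91, 1.34 and 0.587 CPM in the T315I libraries, against 7.18, 10.8 and 11.2 CPM in the p210 libraries and 0.184, 1.54 and 1.23 CPM in the control libraries, with reads that may belong to the gene on the other strand. Higher in T315I than in p210 was CG42404, with 9.18, 7.52 and 13.8 CPM in the T315I libraries, against 1.75, 1.98 and 1.24 CPM in the p210 libraries and 3.505, 3.42 and 2.27 CPM in the control libraries. The kinesin gene Klp59D had 24.5, 19.97 and 20.4 CPM in the T315I libraries, against 10.004, 8.57 and 11.5 CPM in the p210 libraries and 35.6, 159 and 94.3 CPM in the control libraries, and was highest in the control. The groups did not overlap between T315I and p210 in any of these 6 genes, which were picked by their calls in these same libraries. Of the 9 named genes given above as the largest rises over control, none was called between T315I and p210 by the fit of all libraries. Their log2 fold change T315I over p210 was 3.93 ± 0.93 for dpr2 (edgeR adjusted p = 0.632) and between -0.58 ± 0.57 for SPR and 0.33 ± 0.75 for St2 in the others. It was 0.69 ± 0.76 for TotM, -0.09 ± 0.44 for cher and -0.09 ± 0.64 for PPO3. These standard errors also carry the spread of the controls, and a missed threshold does not show that the 2 forms act alike. The 2 transgene groups share their 3 control libraries, so their comparisons with the control are not independent.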

How the data were processed

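RNA of larval hemocytes was sequenced from stranded, ribosomal RNA-depleted libraries, per the labels' protocols. The deposited table holds whole read counts per gene. Per the submitters' processing notes the authors used FastQC 0.11.8, HISAT2 2.1.0 and featureCounts 2.0.1 with genome build dm6; for annotation release, strand setting and multi-mapped reads the entry is "not given in the sources used here". Antisense and overlapping genes are therefore uncertain.

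Counts of 9 libraries (3 per group) were fitted together in R 4.3.3 with edgeR 4.0.16 (filterByExpr, TMM factors, robust quasi-likelihood test), with Benjamini-Hochberg adjustment over all 9978 genes and a threshold of 0.05. CPM used library totals times TMM factors. Log2 fold changes are T315I over control unless said otherwise, each with a standard error derived from the F statistic. Alternatives used limma 3.58.1 and DESeq2 1.42.0, other scalings and filters, thinning, a replicate block and leaving out each library. The procedure was tested on simulated data with few changed genes and the same spread of each gene in all groups. The groups here differed in spread and many genes were called, so that test does not show how the procedure performs on these data.

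Gene positions and types came from annotation BDGP6.54, in which 17554 of 17874 genes matched by symbol. Genes were described in 63 lists. The members and lists were chosen with earlier results of these data known. Named genes were the 12 largest rises and falls among named genes and the 10 largest among unnamed ones (called, at least 2-fold, no overlap, at least 2 CPM in the higher group), up to 3 called members per list by smallest p (with none called, the 2 most abundant), members called against their list's direction, the 10 most abundant genes per kb, the 10 smallest p-values, genes seen in 1 group only, and Abl, Hml, Socs36E, rhea and CycE. Not all genes the rule gives are named, 1 of the 10 most abundant is not reported here, and others, such as cher, PPO3, Drip, hop, upd3, Drs, Sr-CI and the genes set against p210, were chosen after their values were seen. Replicates of a group differed by more than sampling noise, with a chi-square per degree of freedom of 14.4 to 16.9 in T315I and 54.9 to 82.2 in control. Every p-value rests on the spread between libraries that the labels call replicates.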

Additional observations from a re-analysis of the deposited data

How the results depend on the processing

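With a replicate block, 1866 genes were called higher and 2259 lower, and of 172 named genes 4 lost and 1 gained its call. Deviations from the group mean correlated at -0.318, -0.300 and 0.107 between same-numbered T315I and control libraries, and at -0.148 to 0.352 between others. With 3 libraries per group, these correlations cannot decide whether the numbers mark a shared day or batch. Under RLE, upper-quartile or other-tissue-free scaling, DESeq2, both limma-voom fits, no filter, the 2 groups alone and thinning, calls stayed within 1.5 times of the reported counts, at 1482 to 2133 higher and 2112 to 3073 lower. Scaling to plasmatocyte markers gave 416 higher, 255 of them at least 2-fold, and a test against a fold change of 1.5 gave 584 higher. A filter of 5 CPM left 423 rises and 1422 falls of at least 2-fold. Leaving out single libraries gave 1284 to 2222 genes higher, 1860 to 2920 lower and 420 to 897 at least 2-fold higher, the fewest rises without T315I replicate 2 and the fewest of at least 2-fold without control replicate 2. T315I and p210 alone gave 6 calls. Of the named genes, Stat92E (-0.026), tsr (-0.023) and CG10407 (-0.00060) were called and turned sign under plasmatocyte-marker scaling; the other genes that turned sign were not called. Calls were lost, with direction kept, for 37 of 172 under that scaling, 28 against a fold of 1.5, 12 with the 2 groups alone, 11 with thinning, 8 with no filter and at most 7 under each other setting that keeps all libraries. The genes not called that turned sign under plasmatocyte-marker scaling were Act5C (-0.079), Drs (-0.0013), Hml (-0.323), RpL39 (-0.189), sta (-0.304), asRNA:CR45600 (-0.131), eEF1alpha1 (-0.404), eater (-0.316), hop (-0.049) and srp (-0.187), all log2 fold changes. With no filter Pvr (0.035), RpLP1 (0.012) and crq (0.0078) turned, with thinning asRNA:CR45600 (-0.332), and eEF1alpha1 turned with upper-quartile scaling (-0.051) and the 5 CPM filter (-0.086). Leaving out single libraries gave log2 ranges of -0.019 to 0.983 for Drs, -0.028 to 0.256 for Hml, -0.122 to 0.156 for Pvr, -0.107 to 0.071 for RpLP1, -0.132 to 0.655 for asRNA:CR45600, -0.079 to 0.0033 for crq and -0.0093 to 0.161 for eEF1alpha1. The cause was not tested. The smaller depth of the control libraries limits genes under 1 CPM, and most of the largest rises were larger without control replicate 3.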

Other observations

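Several families of surface and secreted proteins split between rises and falls by the edgeR test, against 20.5% higher and 28.7% lower over all genes tested. Of 23 tested tetraspanin genes, 4 rose and 12 fell. Tsp42Ed had 262, 291 and 298 CPM in the T315I libraries, against 18.6, 26.8 and 91.4 CPM in the control libraries (log2 fold change 2.62 ± 0.50), whereas Tsp42Ek of the same gene cluster had 4.24, 1.195 and 3.46 CPM in the T315I libraries, against 35.2, 48.2 and 18.3 CPM in the control libraries (-3.51 ± 0.49). Both directions thus occurred within the 42E cluster. Of 9 tested Nimrod genes, 2 rose, NimC1 and NimB5 (1.64 ± 0.24), and 4 fell, among them NimC2 (-1.61 ± 0.28). The growth factor genes Idgf2 (0.84 ± 0.20) and Idgf3 (0.50 ± 0.15) rose, and Idgf4 (-2.73 ± 0.59) and Idgf5 (-2.35 ± 0.72) fell. Of 29 glutathione S-transferase genes, which encode detoxifying enzymes, 5 rose, among them GstE2 (2.55 ± 0.44), and 8 fell, among them GstD10 (-3.01 ± 0.42) and GstS1 (-2.11 ± 0.33). The neuronal dpr, DIP, beat and side genes rose in 4 and fell in 11 of 35, and chemosensory receptor genes rose in 2 and fell in 3 of 23. Single left-out libraries gave 7 tetraspanin genes lower without T315I replicate 3, 2 Nimrod genes lower without T315I replicate 3, 8 glutathione S-transferase genes higher without control replicate 3, 5 to 7 dpr, DIP, beat and side genes lower without control replicate 2 or T315I replicate 2 or 3 and 1 of the chemosensory genes lower without control replicate 2 or T315I replicate 1 or 2. Leaving out 1 library moved the fold change by over 1.5-fold (log2 fold change without it in parentheses): without control replicate 3 for Tsp42Ed (3.62) and GstE2 (3.56), without control replicate 1 for Idgf4 (-1.80) and Idgf5 (-1.57), without T315I replicate 2 for Idgf4 (-3.36) and Idgf5 (-3.32). Calls lost on leaving out 1 library (edgeR adjusted p in parentheses) were those of Idgf3 without control replicate 2 or T315I replicate 1 or 2 (0.0629 to 0.0829), Idgf5 without control replicate 1 or T315I replicate 1 or 3 (0.0517 to 0.0893).

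Signalling and trafficking lists were mixed as well, against 20.5% higher and 28.7% lower over all genes tested. Of 18 Hippo genes, 9 rose, among them the coactivator gene yki (1.08 ± 0.20), and 4 fell, among them the atypical cadherin gene ds (-2.18 ± 0.38). Of 16 tested Notch genes, 4 rose (25.0%) and 3 fell (18.75%), the glycosyltransferase gene fng (-3.67 ± 0.45) most of all. Apoptosis genes rose in 5 of 12 and fell in 2, with p53 (0.74 ± 0.19) higher and Buffy (-2.87 ± 0.52) lower. Rab GTPase genes rose in 9 of 25 and fell in 2, COPI and COPII coat genes rose in 8 of 19 and fell in 0, and autophagy genes rose in 5 of 18 and fell in 1. DNA repair genes rose in 11 of 25 and fell in 2, mitochondrial ribosomal protein genes rose in 6 of 71 and fell in 0, and genes of protein folding in the endoplasmic reticulum rose in 2 of 16 and fell in 1. Vacuolar ATPase genes rose in 3 and fell in 10 of 28, the largest fall being Vha100-5 (-4.36 ± 0.97). After scaling to plasmatocyte markers, 1 Hippo, 0 Notch, 1 apoptosis, 0 Rab, 0 coat, 2 autophagy, 0 DNA repair, 0 mitochondrial ribosomal, 0 folding and 0 vacuolar ATPase genes were called higher. With thinning 2 DNA repair genes were called higher. With 1 library left out, edgeR called 3 to 5 Hippo genes higher without control replicate 2 or T315I replicate 1, 2 or 3, 2 Notch genes higher without T315I replicate 2, 3 apoptosis genes higher without control replicate 2 or T315I replicate 1, 2 or 3, 4 to 5 coat genes higher without control replicate 2 or T315I replicate 1, 2 or 3, 3 to 5 DNA repair genes higher without control replicate 2 or T315I replicate 1, 2 or 3, 2 to 3 mitochondrial ribosomal protein genes higher without T315I replicate 1 or 3, 14 mitochondrial ribosomal protein genes higher without control replicate 1 and 5 vacuolar ATPase genes lower without control replicate 2 or T315I replicate 2 or 3. A shift of over 1.5-fold came from 1 library (log2 fold change without it in parentheses): without control replicate 1 for Vha100-5 (-2.28).

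Markers of further tissues went in both directions, against 20.5% higher and 28.7% lower over all genes. Tracheal markers fell in 5 of 7, with the chitin deacetylase genes serp (-3.24 ± 0.42) and verm (-3.32 ± 0.45) among them, while the receptor gene btl rose (2.28 ± 0.52). All 4 tested Malpighian tubule markers fell, as did 4 of 6 ring gland genes for steroid synthesis and 4 of 6 imaginal disc markers. Germline markers rose in 2 and fell in 4 of 9, with vas at 1.06, 0.984 and 0.457 CPM in the T315I libraries, against 1.48, 7.94 and 7.95 CPM in the control libraries. The groups did not overlap for vas (log2 fold change -2.81 ± 0.63). Neuron markers rose in 2 and fell in 2 of 11, glia markers rose in 1 and fell in 2 of 4, nephrocyte markers rose in 2 and fell in 1 of 4, and markers of lymph gland progenitors and niche rose in 2 and fell in 3 of 6. List medians on the log2 scale were -0.25 for neuron, -1.12 for glia, 0.58 for nephrocyte, 0.31 for germline and -1.67 for lymph gland progenitor and niche markers. Counts that 1 left-out library moved by over 1.5 times were 2 Malpighian tubule markers lower without control replicate 2 or T315I replicate 2 or 3, 2 ring gland genes lower without control replicate 2 or T315I replicate 1, 2 or 3 and 2 germline markers lower without control replicate 2 or T315I replicate 2 or 3. The size of the change moved by over 1.5-fold (log2 fold change without it in parentheses): without control replicate 3 for btl (3.42).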
